A study of Rattus norvegicus with 24 samples.

Results

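The genes described here are the amino acid transporter families SLC1, SLC3, SLC7, SLC36, SLC38 and SLC43 of rat liver. They were taken by a rule on names, and this rule was chosen with earlier results of these data known. Each probe set (a set of array probes summarised as 1 value) paired with 1 gene symbol was considered. It was taken where that symbol began with Slc, one of these family numbers, the letter a and a member number. This gave 44 of the 17245 genes measured, 7 of SLC1, 2 of SLC3, 17 of SLC7, 4 of SLC36, 11 of SLC38 and 3 of SLC43. Of the 44, 41 are numbered carriers, and 3 carry letters after the number (Slc7a6os, Slc7a3l1 and Slc7a12l1). Slc7a6os is named for its place opposite Slc7a6 and is not a carrier. Slc7a10 was not analysed here, because its 2 probe sets are shared with Lrp3.

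Liver RNA of 24 male Wistar rats, each with its own animal number, was hybridised to 1-colour whole-transcript Affymetrix arrays, 1 per rat. The 4 groups of 6 were rats on 5% protein for 4 weeks, on 20% protein for 4 weeks, on 5% protein for 1 week and on 20% protein for 1 week. Age is not given in the sources used here, and no group carries a mutation or a drug in the labels. These percentages and times are those of the sample titles, while codes in the sample descriptions read 4 for the 5% and 18 for the 20% diet, and the series' design text speaks of 4 weeks alone. The values are RMA intensities (background-corrected, quantile-normalised and summarised over probes), given below as log2, and the array medians lay between 42.4 and 45.5 in unlogged intensity. Such values carry no detection call, and levels of different probe sets cannot be set against each other. The summed intensity of 6 hepatocyte markers lay between 48371 and 64177 on all 24 arrays. At 4 weeks it ran from 48371 to 59931 on 5% and from 55411 to 64177 on 20% protein, and all 6 had a negative difference (5% minus 20%), 3 of them past the test used below: Fgb (-0.39 ± 0.09), Ttr (-0.21 ± 0.06) and Serpina1 (-0.17 ± 0.06). Their part in the results was not tested. In a bulk sample, fewer cells of a type and less RNA per cell cannot be told apart.

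Amino acids cross membranes on carriers that differ in the charge and size of what they take. SLC1 holds the sodium-driven glutamate carriers and the neutral exchangers ASCT1 and ASCT2, SLC7 holds the cationic carriers (CAT) and the light chains that need a heavy chain of SLC3 to reach the membrane, and SLC36, SLC38 and SLC43 hold proton-coupled carriers, sodium-coupled neutral carriers and facilitative carriers of large neutral amino acids. Hepatocytes take up much of the amino acid load of portal blood, and cells short of amino acids raise the transcription factor ATF4, which induces several of these carriers.

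The animal numbers in the titles fall into 4 runs, each fed for 1 period. At 4 weeks the first run (rats 22 to 32) held 5 rats on 5% and 2 on 20%, and the third (rats 59 to 73) held 1 and 4. At 1 week the second run (rats 49 to 54) and the fourth (rats 74 to 79) held 3 rats of each diet. The 20% rats at 1 week stood apart by run, and members were called there about as often as genes at large. Of the 44 members, 4 differed between the fourth and the second run (1 higher and 3 lower, against 4.3% and 6.53% of all genes). In the 5% rats of that week 0 differed (limma called 0.342% and 0.441% of all genes, and 5 members had an unadjusted p below 0.05). The 4 were Slc1a2 (-2.42), Slc3a2 (-1.27), Slc7a11 (-1.23) and Slc7a4 (0.63), the last chosen after its values were seen. Within-run values are therefore given beside the diet differences whose call they end. The third run holds 1 rat on 5% protein, whose spread is taken to be that of the other groups, so its p-values rest on that assumption.

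At 4 weeks, 10 of the 44 members were higher on 5% protein and 10 were lower, called by limma where the p adjusted over all 17245 genes (Benjamini-Hochberg) was below 0.05. Of all genes, 13.4% were higher and 12.4% lower, so the members were called more often (45.5%) than genes at large (25.8%). The higher members were led by Slc7a1, Slc7a11 and Slc7a5, which bring in cationic amino acids, cystine and large neutral amino acids, and by Slc3a2, the heavy chain of the last 2. The lower members were led by the glutamate carrier gene Slc1a2 and by all 3 members of SLC43. The median difference over the 44 was -0.04 on the log2 scale, beside -0.01 for all genes. In 9 of the 44 members, and in 12.4% of all genes, all 5% rats lay on 1 side of all 20% rats. Within the first run 9 members were higher and 4 lower (8.32% and 7.54% of all genes), and within the third, with its 1 rat on 5%, 7 and 3 (6.83% and 5.49%).

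**Figure D1:**
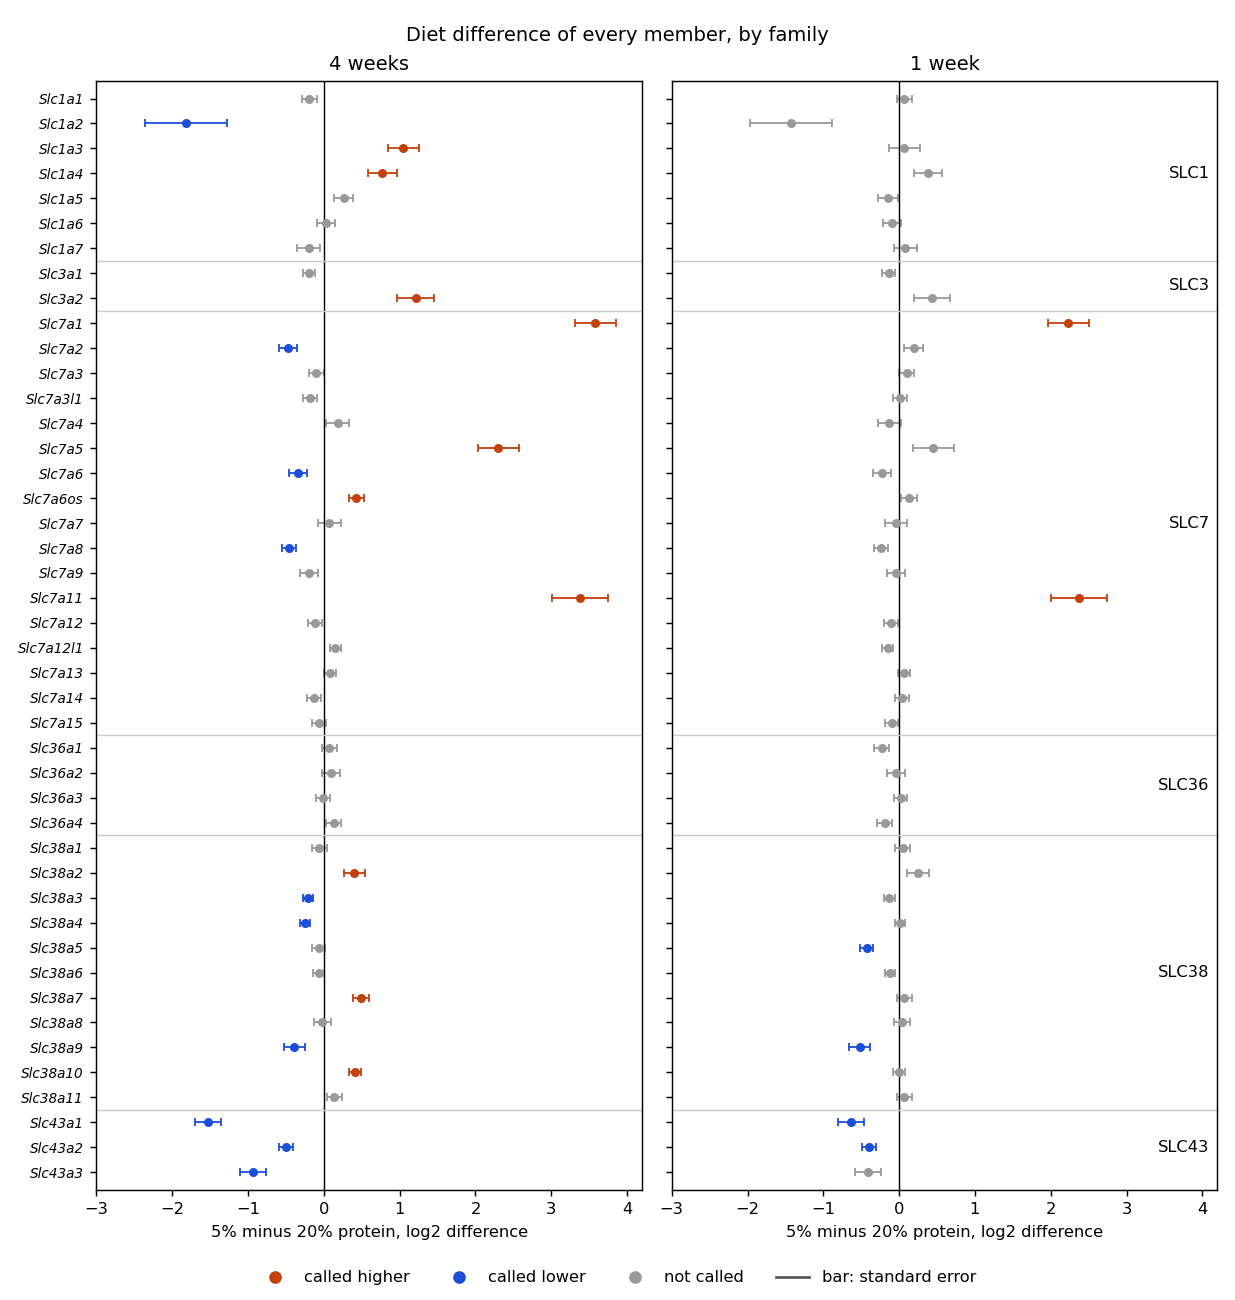
Log2 difference in intensity, 5% minus 20% protein, for each of the 44 members, grouped by family, at 4 weeks and at 1 week, with standard errors (n = 6 animals per group), red for members called higher, blue for those called lower and grey for the rest. At 4 weeks Slc7a1 (3.58) and Slc7a11 (3.38) lie farthest to the right and Slc1a2 (-1.82) farthest to the left, and at 1 week only Slc7a1 and Slc7a11 are called higher.

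Slc7a1 encodes CAT1, a carrier of arginine, lysine and ornithine. Its log2 intensity at 4 weeks ran from 7.78 to 9.10 (median 8.48) on 5% protein, and from 4.60 to 5.07 (median 4.89) on 20% protein. Every 5% rat lay above every 20% rat, by more than the whole range of either group. The difference was 3.58 ± 0.27 (standard error, n = 6 per group), a 12-fold higher intensity (limma adjusted p = 9.03e-10). It was 3.43 within the first run of animals and 4.23 within the third.

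The 250 bases before the start of Slc7a1 are shown because they hold the letters TGATGNAA, the core of the C/EBP-ATF response element through which ATF4 binds, here as TGATGAAA on the gene's strand with its first base 30 bases before the start. RefSeq windows (GRCr8) of 250 bases before to 50 after the start were searched on both strands, with TTNCATCA as the reverse. Windows were found for 33 of the 44 members, some with more than 1, and 3 members hold a match. By window, 8.11% of the 37 member windows hold a match, beside 3.98% of the 33469 windows of all genes. Slc1a4 holds it on the opposite strand (TTGCATCA, 235 bases before the start) and Slc38a1 on the same strand (TGATGCAA, 142 bases before the start). The windows found for Slc7a11, Slc7a5 and Slc3a2 do not hold these letters. The bases are printed 5′ to 3′ on the gene's strand, with the match in capitals.
Slc7a1, chr12:11664238-11664487, plus strand: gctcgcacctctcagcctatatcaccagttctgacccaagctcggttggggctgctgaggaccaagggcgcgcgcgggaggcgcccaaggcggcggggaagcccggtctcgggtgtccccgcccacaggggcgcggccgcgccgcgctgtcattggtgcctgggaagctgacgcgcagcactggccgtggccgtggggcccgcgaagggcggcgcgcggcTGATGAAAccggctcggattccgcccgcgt
Slc1a4, chr14:98761563-98761812, minus strand: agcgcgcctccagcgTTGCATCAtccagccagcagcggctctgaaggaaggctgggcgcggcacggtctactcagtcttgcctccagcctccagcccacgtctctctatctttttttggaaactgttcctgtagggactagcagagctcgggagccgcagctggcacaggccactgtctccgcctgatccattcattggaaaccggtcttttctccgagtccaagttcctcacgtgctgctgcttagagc
Slc38a1, chr7:129681402-129681651, minus strand: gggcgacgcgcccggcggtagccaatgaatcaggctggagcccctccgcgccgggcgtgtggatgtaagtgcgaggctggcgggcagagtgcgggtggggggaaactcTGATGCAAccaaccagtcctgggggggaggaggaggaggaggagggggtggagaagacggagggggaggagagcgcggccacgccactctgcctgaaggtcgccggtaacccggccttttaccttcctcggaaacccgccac
Of these 3 genes, Slc7a1 and Slc1a4 rose on 5% protein at 4 weeks and Slc38a1, a sodium-coupled carrier of glutamine and alanine, did not pass the test in any comparison (-0.06 ± 0.10 at 4 weeks and 0.05 ± 0.10 at 1 week). A match is a description of the letters only.

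Slc7a2 encodes CAT2, the other main carrier of cationic amino acids and the one adult hepatocytes are known for. Its log2 intensity at 4 weeks ran from 10.75 to 11.41 (median 11.25) on 5% protein, and from 11.57 to 11.93 (median 11.63) on 20% protein. The diets did not overlap here either, and 5% lay below. Slc7a2 fell by 0.47 on the log2 scale (standard error 0.12, limma adjusted p = 0.00339). The 2 cationic carriers thus differed by diet in opposite directions. Within the first run Slc7a2 was at -0.40 and within the third at -0.49, neither past the threshold (adjusted p = 0.0879 and 0.141).

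Slc3a2 encodes the heavy chain 4F2hc (CD98), which several SLC7 light chains need. Its log2 intensity at 4 weeks ran from 11.43 to 11.81 (median 11.71) on 5% protein, and from 9.93 to 11.17 (median 10.35) on 20% protein. The diets did not overlap, and the 20% rats spread more widely than the 5% rats. Slc3a2 rose by 1.21 ± 0.24 (2.31-fold, limma adjusted p = 0.000566). The 20% rats of the third run lay 0.90 below those of the first (adjusted p = 0.00902), the only member called between those runs (0.841% of all genes were higher and 0.957% lower), and the diet difference was 0.58 within the first run and 1.64 within the third. Slc3a1, the heavy chain rBAT of the kidney cystine carrier, had 3.61 ± 0.16 on 5% and 3.81 ± 0.16 on 20% protein (mean ± SD of log2) and did not pass the test (adjusted p = 0.0733).

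Of the 5 light chains of Slc3a2 that were measured alone, 2 rose, 2 fell and 1 did not pass the test at 4 weeks. Slc7a11 encodes xCT, which takes up cystine in exchange for glutamate and so feeds glutathione synthesis. Its log2 intensity ran from 6.47 to 8.62 (median 7.68) on 5% protein, and from 4.19 to 4.53 (median 4.23) on 20% protein. All 5% rats stood clear of the 20% rats, which lay in a narrow band. Slc7a11 rose by 3.38 ± 0.37 (10.4-fold, limma adjusted p = 3.40e-07), by 3.10 within the first run and 4.39 within the third.

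Slc7a5 encodes LAT1, which exchanges large neutral amino acids such as leucine across the plasma membrane. Its log2 intensity at 4 weeks ran from 8.90 to 9.46 (median 9.20) on 5% protein, and from 6.17 to 7.71 (median 6.80) on 20% protein. The diets did not overlap, and the rise was 2.30 ± 0.27 (4.91-fold, limma adjusted p = 7.25e-07). Within the first run it was 1.76 and within the third 2.80. Slc7a8 (LAT2), which carries neutral amino acids of all sizes, went the other way, with 6.18 ± 0.12 on 5% and 6.65 ± 0.19 on 20% protein (SD), and fell by 0.46 ± 0.09 (adjusted p = 0.000541, and -0.52 with adjusted p = 0.0799 within the third run). Slc7a6 (y+LAT2), which exports cationic amino acids in exchange for neutral ones, fell by 0.34 ± 0.12 (adjusted p = 0.0406), a call lost on leaving out any 1 of 9 animals (rats 22, 23, 26, 29, 30, 32, 63, 67 and 73, adjusted p 0.0511 to 0.107) and with array medians centred (-0.31, adjusted p = 0.0602), quantile normalisation repeated (-0.32, adjusted p = 0.0571), the run as a covariate (-0.34, adjusted p = 0.0986) or only the compared groups fitted (-0.34, adjusted p = 0.0934). Slc7a6 stood at -0.49 within the first run (adjusted p = 0.0674) and at -0.08 within the third (adjusted p = 0.892). Slc7a7 (y+LAT1) averaged 5.91 on 5% and 5.83 on 20% protein and did not pass the test. Slc7a6os rose by 0.43 ± 0.10 (adjusted p = 0.00244), without overlap of the diets. The difference of Slc7a6os was 0.50 within the first run and 0.39 within the third, where it missed the threshold (adjusted p = 0.164).

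Of 4 cholangiocyte markers measured, 2 were higher at 4 weeks, Epcam (1.55 ± 0.31) and Sox9 (0.66 ± 0.13). The other two had negative differences and did not pass the test, Krt19 (-0.52, adjusted p = 0.138) and Krt7 (-0.02, adjusted p = 0.934). The summed intensity of the 4 ran from 269 to 659 on 5% and from 227 to 342 on 20% protein. Their part in the rises of the carriers was not tested.

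**Figure D2:**
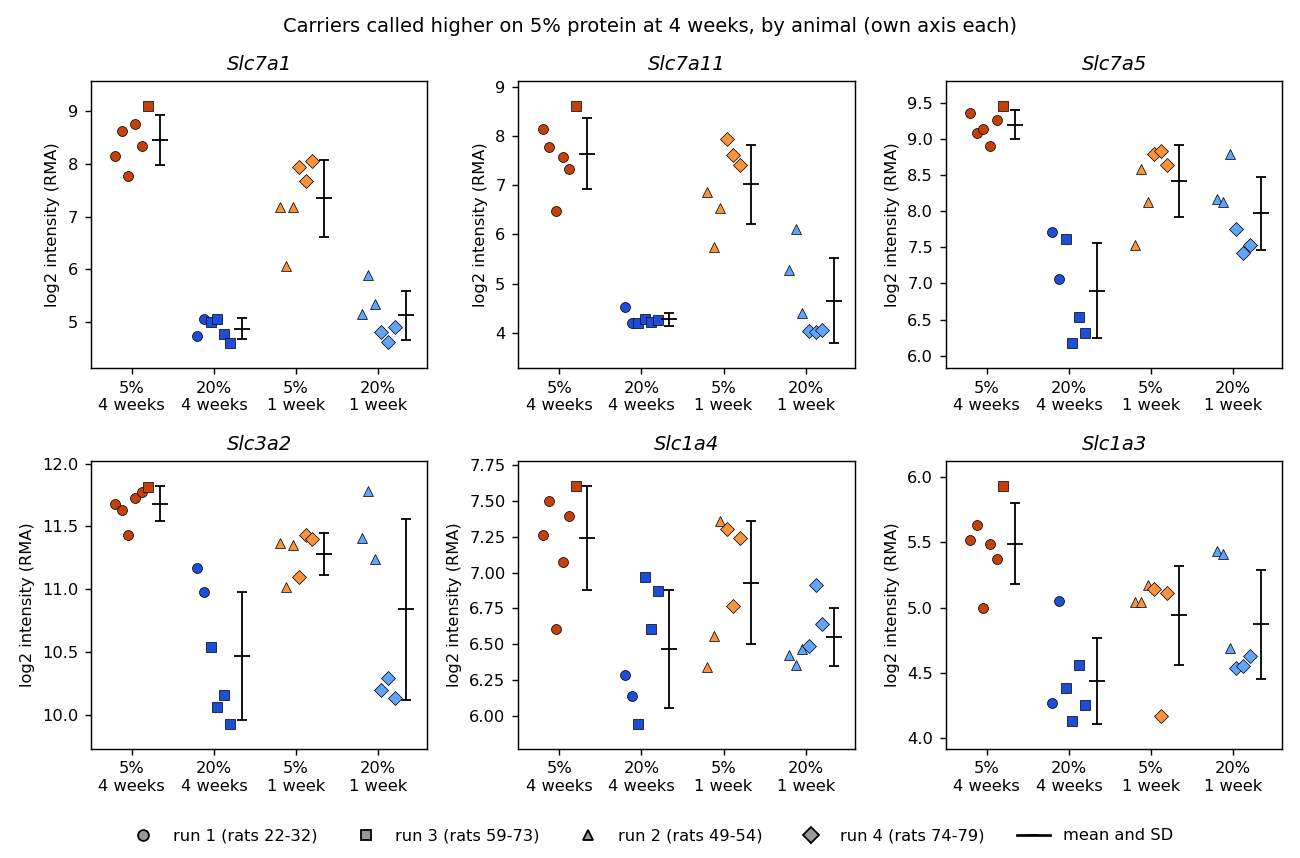
Log2 intensity of Slc7a1, Slc7a11, Slc7a5, Slc3a2, Slc1a4 and Slc1a3 in each of the 24 rats (points, by diet and week, 6 per group, symbol shape for the run of animal numbers) with group means and SD. At 4 weeks the diets are clear of each other for Slc7a1, Slc7a11, Slc7a5 and Slc3a2, and at 1 week only for Slc7a1.

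SLC1 held 2 rises and 1 fall among 7 members at 4 weeks. Slc1a2 encodes GLT-1, a glutamate carrier that in rodent liver is known from hepatocytes around the central vein. Its log2 intensity ran from 5.61 to 8.19 (median 6.71) on 5% protein, and from 7.70 to 9.42 (median 8.52) on 20% protein. The diets overlapped, and the rats of either diet differed widely among themselves. Slc1a2 fell by 1.82 on the log2 scale (standard error 0.54, limma adjusted p = 0.0145), with -2.28 within the first run (adjusted p = 0.00935) and -2.10 within the third (adjusted p = 0.0837). Of 7 pericentral markers measured, the ammonium transporter gene Rhbg was higher at 4 weeks (2.59 ± 0.21) while Oat, of ornithine breakdown, and Gulo, of vitamin C synthesis, were lower (-3.11 ± 0.36 and -0.71 ± 0.11). Cyp2e1 (-0.05), Lgr5 (0.07), Tbx3 (0.19) and Axin2 (-0.03) did not pass the test. The summed intensity of the 7 ran from 9659 to 12963 on 5% and from 12227 to 17486 on 20% protein, and their part in the fall of Slc1a2 was not tested.

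The other glutamate carrier gene with a change, Slc1a3 (GLAST), rose by 1.05 ± 0.20 at 4 weeks (adjusted p = 0.000271), with 5.49 ± 0.31 on 5% and 4.44 ± 0.33 on 20% protein (SD), and by 0.74 within the first run and 1.60 within the third. So the 2 glutamate carriers best known from astrocytes had opposite signs. Slc1a4 (ASCT1), an exchanger of alanine, serine and cysteine, rose by 0.77 ± 0.19 (adjusted p = 0.00435), with 7.24 ± 0.36 and 6.47 ± 0.41. Slc1a3 overlapped slightly between the diets (5.00 to 5.93 on 5% and 4.13 to 5.05 on 20% protein). Slc1a4 overlapped more widely (6.61 to 7.60 on 5% and 5.95 to 6.97 on 20% protein). Slc1a5 (ASCT2), the glutamine exchanger, had 5.29 ± 0.31 and 5.02 ± 0.23 and did not pass (adjusted p = 0.15), nor did Slc1a1, the glutamate and cysteine carrier EAAT3, with 4.13 ± 0.19 and 4.31 ± 0.20 (adjusted p = 0.183). Within the third run Slc1a4 was at 1.00 (adjusted p = 0.0725).

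All 3 members of SLC43 fell at 4 weeks. Slc43a1 encodes LAT3, a carrier of leucine and other large neutral amino acids. Its log2 intensity ran from 6.80 to 8.04 (median 7.54) on 5% protein, and from 8.70 to 9.27 (median 8.93) on 20% protein. The diets did not overlap, and Slc43a1 fell by 1.53 on the log2 scale (standard error 0.17, limma adjusted p = 4.40e-07), and stood at -1.47 within the first run and -1.35 within the third. Thus LAT1 and LAT3, which share substrates, were higher and lower on the same diet. Slc43a2 (LAT4) fell by 0.50 ± 0.09 (adjusted p = 0.000193, and -0.33 with adjusted p = 0.0816 within the first run). Slc43a3, known as a carrier of purine nucleobases rather than of amino acids, fell by 0.93 ± 0.17 (adjusted p = 0.000198).

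Some markers of other liver cells and of periportal hepatocytes were also lower at 4 weeks, where 12.4% of all genes were lower. The rest of each list did not pass the test, Dcn of stellate cells (0.27 ± 0.29) and Cd3e of lymphocytes (0.01 ± 0.13) among them. Of 7 Kupffer cell and macrophage markers, 6 were lower at 4 weeks, and their summed intensity ran from 2831 to 3585 on 5% and from 4253 to 6958 on 20% protein, without overlap. Of 4 endothelial markers 1 was lower (Cdh5, -0.47 ± 0.07), with sums of 2391 to 2859 and 2891 to 3445. Of 6 stellate cell markers 2 were lower (Reln, -0.39 ± 0.13, and Hgf, -0.35 ± 0.13), with sums of 2128 to 3041 and 2472 to 4562, and of 3 lymphocyte markers 1 (Cd3g, -0.37 ± 0.10), with sums of 91 to 126 and 90 to 152. Of 5 erythroid markers 2 were lower, Alas2 (-1.80 ± 0.51) and Hbb (-1.90 ± 0.41), with sums of 641 to 4990 and 2859 to 9315. Of 8 periportal markers 5 were lower, Sds (-3.23 ± 0.53), Hal (-1.64 ± 0.17), Gls2 (-1.43 ± 0.21), Cps1 (-0.71 ± 0.10) and Ass1 (-0.50 ± 0.13). Pck1 (-0.59), Cyp2f4 (-0.20) and Cdh1 (0.00) did not pass the test. The summed intensity of the 8 ran from 11073 to 22038 on 5% and from 22958 to 31917 on 20% protein. The part of any of these in the falls was not tested.

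SLC38 held 3 rises and 3 falls among 11 members at 4 weeks, all under 0.50 on the log2 scale. Slc38a2 encodes SNAT2, the system A carrier of small neutral amino acids that cultured cells induce when amino acids run short. Its log2 intensity ran from 9.90 to 10.41 (median 9.98) on 5% protein, and from 9.32 to 10.21 (median 9.68) on 20% protein. The diets overlapped, and the rise of 0.40 ± 0.14 just passed the test (limma adjusted p = 0.039). The call was lost within either run (0.49 and 0.66) and on leaving out any 1 of 8 animals (rats 22, 29, 30, 31, 59, 67, 72 and 73, adjusted p 0.0511 to 0.105). Slc38a7 (SNAT7), which exports glutamine from lysosomes, rose by 0.49 ± 0.10 (adjusted p = 0.000743), and Slc38a10, a less studied carrier of the family, by 0.41 ± 0.08 (adjusted p = 0.00062), Slc38a10 without overlap of the diets (8.53 to 8.99 on 5% and 8.15 to 8.46 on 20% protein).

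The falls in SLC38 took in a pair of carriers best known from liver. Slc38a4 encodes SNAT4, a system A carrier found mostly in liver. Its log2 intensity at 4 weeks ran from 12.15 to 12.33 (median 12.24) on 5% protein, and from 12.27 to 12.66 (median 12.47) on 20% protein. The diets overlapped by a small margin, and Slc38a4 fell by 0.25 ± 0.07 (limma adjusted p = 0.0109), a call lost with the run as a covariate (-0.18, adjusted p = 0.113), within the first run (-0.11, adjusted p = 0.468) and within the third (-0.31, adjusted p = 0.114). Slc38a3 (SNAT3), the system N carrier of glutamine and histidine, fell by 0.21 ± 0.07 (adjusted p = 0.028), the diets meeting at 12.55 without overlap. That call was lost on leaving out rat 23, 32 or 67 (adjusted p 0.0516 to 0.0885) and with array medians centred (-0.18, adjusted p = 0.0747), the run as a covariate (-0.20, adjusted p = 0.0834) or only the compared groups fitted (-0.21, adjusted p = 0.0597). Within the first run Slc38a3 stood at -0.21 (adjusted p = 0.205) and within the third at -0.20 (adjusted p = 0.414). Slc38a9, the lysosomal arginine sensor upstream of mTORC1, fell by 0.39 ± 0.14 (adjusted p = 0.0381). The fall of Slc38a9 was lost with the run as a covariate (-0.23, adjusted p = 0.255), within the first run (-0.23, adjusted p = 0.445), within the third (-0.25, adjusted p = 0.595), with array medians centred (-0.36, adjusted p = 0.0679), when well rows entered as a random block (-0.39, adjusted p = 0.0542) and on leaving out any 1 of 9 animals (rats 23, 26, 29, 31, 32, 63, 67, 72 and 73, adjusted p 0.0536 to 0.0912).

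**Figure D3:**
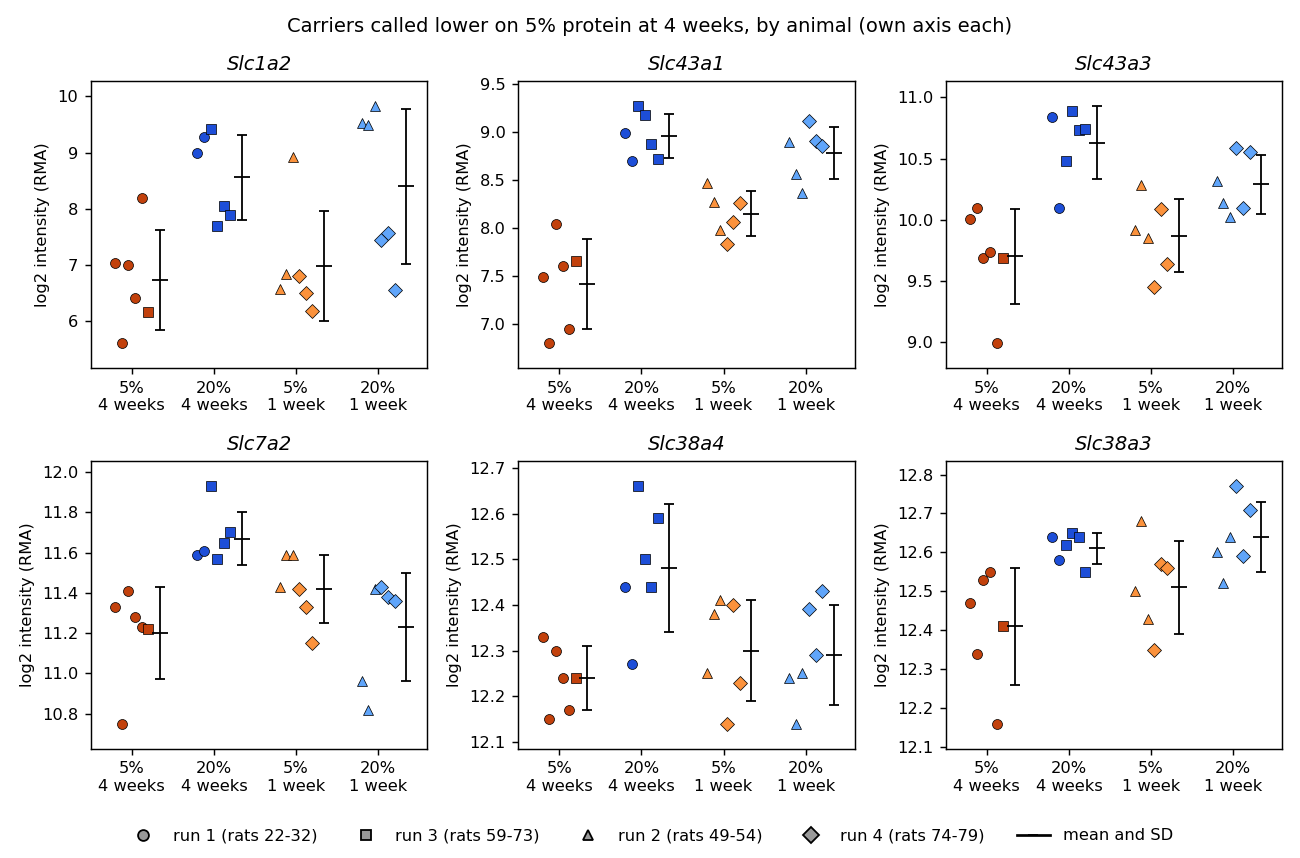
Log2 intensity of Slc1a2, Slc43a1, Slc43a3, Slc7a2, Slc38a4 and Slc38a3 in each of the 24 rats (points, by diet and week, 6 per group, symbol shape for the run of animal numbers) with group means and SD. At 4 weeks the 5% rats lie below the 20% rats without overlap for Slc43a1, Slc7a2 and Slc38a3, and Slc1a2 has the widest spread, 5.61 to 8.19 on 5% protein.

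None of the 4 members of SLC36 passed the limma test at adjusted p below 0.05 in any comparison. At an unadjusted p below 0.05 there were 0 at 4 weeks, 1 at 1 week, 2 for the change of the diet effect with time, and 0 and 1 between the weeks on 5% and on 20% protein. Slc36a1 (PAT1), which exports small amino acids from lysosomes with protons, had 8.06 ± 0.18 on 5% and 7.99 ± 0.09 on 20% protein at 4 weeks (SD), a difference of 0.07 ± 0.10. Slc36a4 (PAT4) had 5.97 ± 0.16 and 5.83 ± 0.11, a difference of 0.13 ± 0.10. Across all 44 members, the 24 not called at 4 weeks differed by -0.20 to 0.26. Among them were 16 members whose mean log2 intensity lay in the lowest 33.3% of genes (at most 4.82), of which 0 were called at 4 weeks (2 at an unadjusted p below 0.05) and 1, Slc38a5, at 1 week. Those 16 include the brain carrier CAT3 (Slc7a3), the kidney carriers Slc7a9 and Slc7a13, and the retinal and cerebellar glutamate carriers Slc1a7 and Slc1a6.

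At 1 week the same contrast called 6 of the 44 members, 2 higher and 4 lower on 5% protein, against 1.86% and 2.44% of all genes (13.6% of the members and 4.3% of all genes in either direction). The diets did not overlap in 3 members, Slc7a1, Slc38a5 and Slc43a2, and in 2.56% of all genes. The higher members were Slc7a1 and Slc7a11, and the lower ones were Slc43a1, Slc43a2, Slc38a5 and Slc38a9. At 1 week each well row of the titles (C to E, G and H) held 1 diet only, so no within-row value could be had. With row as a random block the calls of Slc38a9 (-0.54, adjusted p = 0.0766) and Slc43a1 (-0.62, adjusted p = 0.114) were lost. Both runs held 3 rats of each diet. Within the second run 1 member was higher and 1 lower (2.86% and 4.71% of all genes), and within the fourth 4 and 4 (4.04% and 4.45% of all genes).

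Slc7a1 ran from 6.07 to 8.06 (median 7.43) on 5% protein at 1 week, and from 4.63 to 5.90 (median 5.04) on 20% protein. Every 5% rat was above every 20% rat, and the rise was 2.23 ± 0.27 (limma adjusted p = 2.58e-05). It was 1.35 within the second run (adjusted p = 0.00432) and 3.10 within the fourth (adjusted p = 4.77e-07). The difference between those diet effects, that of the second run minus that of the fourth, was -1.76 (adjusted p = 0.00673).

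Slc7a11 ran from 5.74 to 7.95 (median 7.14) on 5% protein at 1 week, and from 4.02 to 6.12 (median 4.23) on 20% protein. The diets overlapped through the 20% rats of the second run, which lay between 4.40 and 6.12 while those of the fourth lay between 4.02 and 4.05. The rise of Slc7a11 was 2.37 ± 0.37 (adjusted p = 0.0005), with 1.11 within the second run (adjusted p = 0.0664) and 3.62 within the fourth (adjusted p = 4.02e-06).

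Slc7a5 and Slc3a2 did not pass the test at 1 week. Slc7a5 ran from 7.53 to 8.83 (median 8.61) on 5% protein and from 7.42 to 8.80 (median 7.94) on 20% protein, a difference of 0.45 ± 0.27 (adjusted p = 0.41). Slc3a2 ran from 11.02 to 11.43 (median 11.36) on 5% protein and from 10.13 to 11.78 (median 10.76) on 20% protein, a difference of 0.43 ± 0.24 (adjusted p = 0.373). The 20% rats of either gene spanned the 5% rats nearly or fully. By run, Slc7a5 stood at -0.29 in the second and 1.19 in the fourth, and Slc3a2 at -0.23 and 1.10, and in the fourth run both passed the test (adjusted p = 0.0147 and 0.000214). Slc3a2, Slc7a1, Slc7a5 and Slc7a11 were the 4 members whose diet effect differed between the runs, all smaller in the second (4.76% of all genes were called in that direction and 2.53% in the other).

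**Figure D4:**
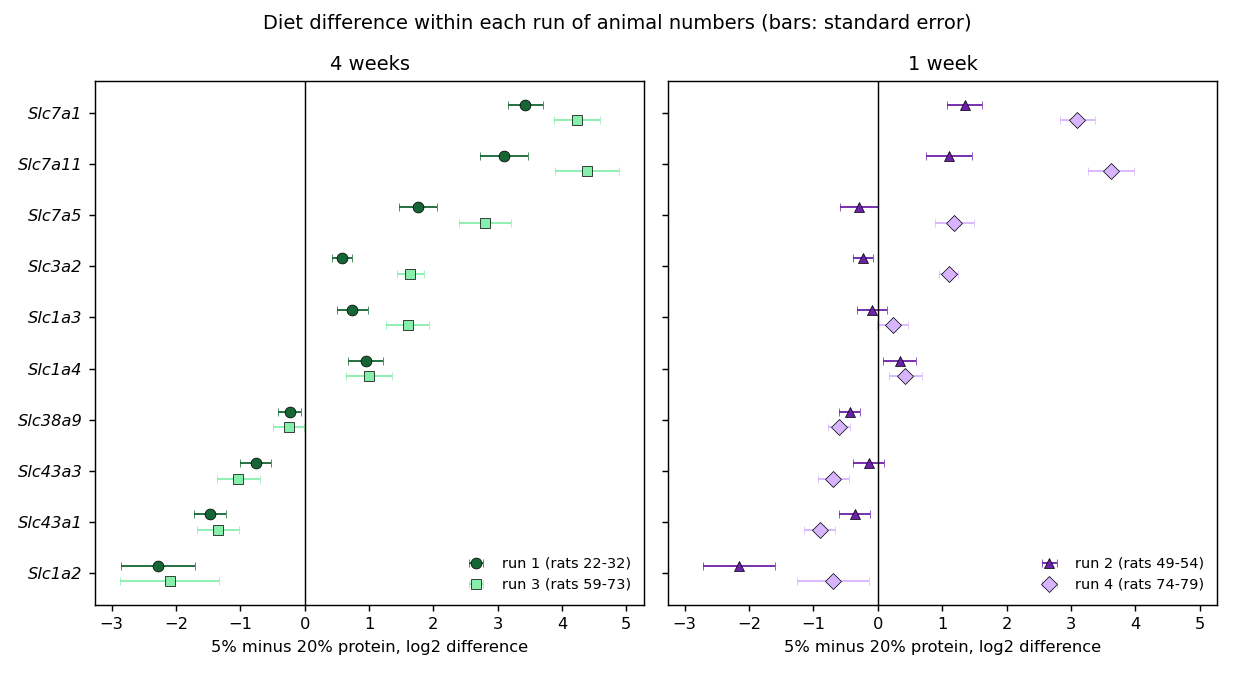
Log2 difference in intensity, 5% minus 20% protein, for 10 members within each run of animal numbers, runs 1 and 3 at 4 weeks and runs 2 and 4 at 1 week, with standard errors. Slc7a1, Slc7a11, Slc7a5 and Slc3a2 stand higher in run 4 (3.10, 3.62, 1.19 and 1.10) than in run 2 (1.35, 1.11, -0.29 and -0.23).

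Slc1a2 at 1 week ran from 6.19 to 8.92 (median 6.69) on 5% protein, and from 6.55 to 9.83 (median 8.54) on 20% protein, and did not pass the test (-1.43 ± 0.54, adjusted p = 0.15). Its 20% rats split by run, between 9.49 and 9.83 in the second and between 6.55 and 7.58 in the fourth. Among rats 49 to 54 the diet difference was -2.16 (adjusted p = 0.0228) and among rats 74 to 79 it was -0.69 (adjusted p = 0.571), and these 2 differences did not themselves differ past the threshold (-1.48, adjusted p = 0.315). Of the 7 pericentral markers only Oat passed the test at 1 week (-1.63 ± 0.36). The 7 markers summed to 11740 to 13534 on 5% and 14148 to 17439 on 20% protein at 1 week. Their part in the difference of Slc1a2 was not tested.

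The 4 falls at 1 week were small. Slc43a1 fell by 0.63 ± 0.17 (limma adjusted p = 0.0341), Slc38a9 by 0.52 ± 0.14 (adjusted p = 0.0283), Slc38a5 by 0.43 ± 0.09 (adjusted p = 0.00509) and Slc43a2 by 0.40 ± 0.09 (adjusted p = 0.011). None of these 4 passed the test within the second run (-0.36, -0.44, -0.24 and -0.33), and all 4 did within the fourth (-0.90, -0.61, -0.61 and -0.47). Without the 20% rats of the fourth run, an alternative chosen after seeing the data, none of the 4 passed (adjusted p 0.0887 to 0.219). The call of Slc43a1 was also lost on leaving out any 1 of 8 animals (rats 51, 54 and 74 to 79, adjusted p 0.0516 to 0.0989), and that of Slc38a9 on leaving out rat 52, 54, 74, 77 or 79 (adjusted p 0.0537 to 0.0752).

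Slc38a5 encodes SNAT5, a system N carrier of glutamine known also from red cell precursors. It ran from 3.35 to 3.68 (median 3.54) on 5% protein at 1 week, and from 3.73 to 4.17 (median 4.00) on 20% protein, without overlap but near the low end of the intensity scale. Of 5 erythroid markers 3 were lower at 1 week, Ahsp (-1.41 ± 0.39), Epb42 (-0.55 ± 0.15) and Slc4a1 (-1.41 ± 0.39), and their summed intensity ran from 1413 to 6430 on 5% and from 5218 to 11540 on 20% protein. Of 7 cell division markers 3 were also lower at 1 week, with sums of 366 to 621 and 481 to 1550. Of 8 periportal markers 2 were lower at 1 week, Sds (-2.61 ± 0.53) and Hal (-0.59 ± 0.17), and the rest did not pass the test. The summed intensity of the 8 ran from 18931 to 25476 on 5% and from 20494 to 30847 on 20% protein. The part of any of these cells in the falls at 1 week was not tested. At 4 weeks Slc38a5 did not pass the test (-0.07 ± 0.09).

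Slc7a2 at 1 week had a log2 intensity of 11.15 to 11.59 (median 11.43) on 5% protein and 10.82 to 11.43 (median 11.37) on 20% protein, overlapping and not called (0.19 ± 0.12, adjusted p = 0.431). Slc38a2 had 9.71 to 10.40 (median 9.86) on 5% and 9.38 to 10.04 (median 9.72) on 20% protein (0.25 ± 0.14, adjusted p = 0.387). Slc38a4 had 12.14 to 12.41 (median 12.32) on 5% and 12.14 to 12.43 (median 12.27) on 20% protein (0.01 ± 0.07, adjusted p = 0.968). The system A and CAT2 genes thus overlapped between the diets at 1 week. Slc43a3 stood at -0.41 ± 0.17, Slc1a4 at 0.38 ± 0.19, Slc7a8 at -0.24 ± 0.09, Slc38a3 at -0.13 ± 0.07 and Slc1a3 at 0.07 ± 0.20, none past the threshold.

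The test of whether the diet effect at 4 weeks differed from that at 1 week called 6 of the 44 members, 4 with a higher and 2 with a lower difference at 4 weeks (3.54% and 2.2% of all genes). This test and both diet comparisons share their animals, so their values are not independent of each other. The weeks also fall in different runs, so a change with feeding time cannot be told apart from a difference between runs. Within runs the diet effect of Slc7a5 was 1.76 and 2.80 at 4 weeks, and -0.29 and 1.19 at 1 week. That of Slc7a1 was 3.43 and 4.23, and 1.35 and 3.10. Slc7a5 differed by 1.85 ± 0.38 (limma adjusted p = 0.00665), Slc7a1 by 1.36 ± 0.38 (adjusted p = 0.0349), Slc1a3 by 0.98 ± 0.28 (adjusted p = 0.0384) and Slc38a10 by 0.42 ± 0.12 (adjusted p = 0.0394). Slc43a1 differed by -0.90 ± 0.24 (adjusted p = 0.0309) and Slc7a2 by -0.66 ± 0.16 (adjusted p = 0.0209). Slc7a5 kept its call under each alternative tried. Without the 20% rats of the second run the other 5 lost theirs (adjusted p 0.0734 to 0.164), and without those of the fourth run, also chosen after seeing the data, all 6 kept it. With the run as a covariate the calls of Slc1a3 (0.98, adjusted p = 0.0567), Slc7a1 (1.49, adjusted p = 0.0516), Slc7a2 (-0.62, adjusted p = 0.0644) and Slc43a1 (-0.79, adjusted p = 0.104) were lost. That of Slc1a3 was also lost when well rows entered as a random block (0.97, adjusted p = 0.0582), and that of Slc38a10 with quantile normalisation repeated (0.36, adjusted p = 0.0624). On leaving out 1 animal, the call of Slc38a10 was lost for 15 animals (rats 29 to 32, 49 to 52, 54, 59, 67, 73, 74, 77 and 79), that of Slc1a3 for 12 (rats 23, 31, 32, 49 to 52, 59, 63, 67, 72 and 73), that of Slc7a1 for 11 (rats 23, 31, 32, 49, 51 to 54, 59, 72 and 73) and that of Slc43a1 for 6 (rats 32, 49, 50, 52, 63 and 67). The adjusted p then ran from 0.0505 to 0.0702.

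Between the weeks, 3 members were called on 5% protein, 2 higher and 1 lower at 4 weeks than at 1 week (4.15% and 4.13% of all genes). Slc7a1 was higher by 1.10 ± 0.27 (limma adjusted p = 0.0121) and Slc38a10 by 0.33 ± 0.08 (adjusted p = 0.0159), and Slc43a1 was lower (-0.72 ± 0.17, adjusted p = 0.0108). On 20% protein 1 member was higher and 1 lower at 4 weeks (1.02% and 1.5% of all genes): Slc7a2 (0.45 ± 0.12, adjusted p = 0.0373) and Slc7a5 (-1.06 ± 0.27, adjusted p = 0.0298). Slc7a5 on 20% protein thus stood at 6.17 to 7.71 at 4 weeks and 7.42 to 8.80 at 1 week. The weeks fall in different runs of animals, so that feeding time and run cannot be told apart in these comparisons. Either call on 20% protein was lost on leaving out any 1 of 6 animals (rats 51, 52, 63, 67, 72 and 73 for Slc7a2, and 51, 52, 53, 67, 72 and 73 for Slc7a5, adjusted p 0.0568 to 0.0962).

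Among amino acid carriers of other families, 18 of 21 listed symbols were measured, and at 4 weeks 1 was higher and 2 were lower. That was 16.7% in either direction, against 25.8% of all genes. Slc16a10, which encodes the aromatic amino acid carrier TAT1, fell by 2.02 ± 0.19 at 4 weeks (limma adjusted p = 4.43e-08) and by 1.18 ± 0.19 at 1 week (adjusted p = 0.000797). Ctns, the lysosomal exporter of cystine, rose by 0.92 ± 0.22 at 4 weeks (adjusted p = 0.00299), and Slc15a3, a lysosomal carrier of peptides and histidine, fell by 0.46 ± 0.14 (adjusted p = 0.0135). At 1 week only Slc16a10 of this list passed the test (5.56%, against 4.3% of all genes in either direction).

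Of 30 listed gene symbols of amino acid sensing through GCN2 and mTORC1, 26 were measured, and at 4 weeks 7 were higher and 4 lower. That was 42.3% in either direction, against 25.8% of all genes. Atf4, the transcription factor of the response, rose by 0.76 ± 0.11 (limma adjusted p = 1.29e-05), its partner Cebpg by 0.58 ± 0.10 and its targets Ddit3 and Trib3 by 1.36 ± 0.20 and 4.90 ± 0.41. Ddit4, an inhibitor of mTORC1, rose by 1.91 ± 0.35. Lamtor3 of the lysosomal scaffold (0.50 ± 0.15) and Nprl3 of the GATOR1 complex (0.28 ± 0.10) also rose. The sestrin gene Sesn3 (-0.68 ± 0.18), Castor2 (-0.76 ± 0.17), of the arginine sensor family, Lamtor4 (-0.40 ± 0.10) and Klf15 (-0.79 ± 0.26), a transcription factor of amino acid breakdown, fell. At 1 week 5 were higher (Atf4, Ddit3, Trib3, Cebpg and Ddit4, at 0.51, 0.97, 2.95, 0.57 and 1.31) and 2 lower (Castor2 and Lamtor4, at -0.60 and -0.40). That was 26.9% of the list, against 4.3% of all genes in either direction at 1 week. Nutrient signalling genes on this list that did not pass the test at 4 weeks numbered 15.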

How the data were processed

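The authors deposited one table of RMA intensity per probe set on the unlogged scale, per the labels. RMA is named without a version, per the submitters' processing notes. The log2 of each deposited intensity was taken. Of 29214 probe sets, 18644 paired with 1 symbol, 962 with several and 9608 with none. Only the first were used, the one with the highest mean log2 for the 879 genes with several, which left 17245 genes. RefSeq's table held all 44 member symbols. The files name no genome build, so coordinates are given only for RefSeq promoter windows (GRCr8).

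The 4 group means were fitted with limma 3.58.1 (lmFit, eBayes, 20 residual and 3.95 prior degrees of freedom) in R 4.3.3, with Benjamini-Hochberg adjustment over 17245 genes, two-sided, called below 0.05. "Rose" and "fell" mean called. Within-run values come from 1 model of all group and run means, where a lone animal of a diet in a run is taken to vary like the others. Tested on simulated data for the 4-week comparison, with 200 of 17245 genes changed, the fit called 68% of shifts of 0.5 and 95% of shifts of 1 on the log2 scale. The simulation held no difference between runs, and 25.8% of genes were called in the real comparison, so these shares may not hold there. Replicates are separate animals, and for arrays their number limits the precision. Python 3.11.15 with pandas 2.3.3 and numpy 2.4.6 joined the tables, and matplotlib 3.10.9 drew the plots.

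Named are 22 listed members, every member called in a diet comparison or its change with time, and the largest called changes with time. Members, lists and rules were chosen with earlier results of these data known. Alternatives were scaling, an offset, the probe set rule, a filter on dim genes, the variance model, the groups in the fit, well row, run, and each animal left out. Items withheld or paired with no single symbol are not analysed here.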

Additional observations from a re-analysis of the deposited data

Results flagged for a closer look

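In 10 of the 108 groups tested (27 named members in 4 groups of 6), 1 animal stood farther from the other 5 than Dixon's 95% critical value for 6 samples (0.625) allows, as log2 intensity. Chance gives about 1 in 20 groups. On 5% protein at 4 weeks these were rat 23 in Slc7a2 (10.75) and rat 32 in Slc43a3 (8.99). On 20% protein at 4 weeks they were rat 63 in Slc7a2 (11.93), rat 29 in Slc7a6os (6.12) and in Slc7a11 (4.53), and rat 72 in Slc36a4 (6.06). On 5% protein at 1 week they were rat 54 in Slc1a2 (8.92), rat 75 in Slc1a3 (4.17) and rat 74 in Slc3a1 (3.34). On 20% protein at 1 week it was rat 52 in Slc1a1 (4.48).

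The diet effect at 4 weeks minus that at 1 week passed limma's test of the difference in 6 members. It was 1.85 for Slc7a5, 1.36 for Slc7a1, 0.98 for Slc1a3, 0.42 for Slc38a10, -0.66 for Slc7a2 and -0.90 for Slc43a1. The weeks held different runs of animals, so feeding time and run cannot be told apart in these values.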

How the results depend on the processing

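No paired analysis was possible because each animal number belongs to 1 rat of 1 group. Over the comparisons, members were called 37 times, of which 14 calls held under every alternative tried for that comparison, 23 were lost under at least 1 and 0 reversed. At 4 weeks the 9 that held were Slc1a3, Slc3a2, Slc7a1, Slc7a5, Slc7a11, Slc38a7, Slc38a10, Slc43a1 and Slc43a3. At 1 week Slc7a1 held, for the change of the diet effect with time Slc7a5, and for time on 5% protein Slc7a1, Slc38a10 and Slc43a1. The comparisons between the weeks had no within-run value and no fit with the run as a covariate. Their calls could not be lost to run, so those that held cannot be ranked with the diet calls. With the run of animal numbers as a covariate, 6 members were lower at 4 weeks, and 2 had a higher and 0 a lower diet effect at 4 weeks than at 1 week (at an unadjusted p below 0.05, 3 lower). Within the first run 4 were lower at 4 weeks and within the third 3. Within the second run 1 was higher and 1 lower at 1 week, and within the fourth 4 were higher. With well row as a random block, 2 were lower at 1 week, and 0 were called higher and 0 lower between the weeks on 20% protein (3 and 7 at an unadjusted p below 0.05). Fitted with the compared groups alone, 4 were higher with time on 5% protein, and 0 in either direction on 20% (5 higher and 7 lower unadjusted). With array medians centred, 0 were higher with time on 20% (3 unadjusted). Without the 20% rats of the fourth run at 1 week 1 was lower, a member other than those called lower with all animals. Without the 20% rats of the second run 0 had a lower diet effect at 4 weeks (4 unadjusted). Leaving out each animal in turn, the counts at 4 weeks were 9 to 11 higher and 7 to 10 lower, and at 1 week 2 to 2 and 2 to 4. For diet by time they were 1 to 5 and 1 to 2, for time on 5% protein 2 to 3 and 1 to 2, and for time on 20% protein 0 to 1 and 0 to 2. Slc38a5 had no value with the lowest 33.3% of genes left out. The cause of these changes was not tested. RMA intensities have no background measure, so the low members have no detection limit.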
